A study of Mus with 12 samples.

Results

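The epidermal growth factor (EGF) family was followed in the mouse uterus at 4 days of pregnancy. It was taken as 10 genes, of which 7 encode ligands (Areg, Ereg, Hbegf, Btc, Tgfa, Egf and Nrg1) and 3 encode receptors (Egfr, Erbb2 and Erbb3). A row of a deposited gene table was kept where it carried one of these names and listed an annotated Ensembl transcript, which gave 10 of the 87235 rows of the implantation-stage table and 10 of the 40787 rows of the labor-stage table, 1 row per gene in each. The rule that picks the rows uses names and not values. RNA had been sequenced from the whole uterus of 12 pregnant ICR mice, an outbred stock, with 1 mouse per library and 3 mice per group. The groups were collected at E0.5 and E4.5 (before and at embryo implantation) and at E15.5 and E18.5 (late pregnancy and near term). The mice were described as 8 weeks old, and no genotype or treatment set the groups apart, so the day of pregnancy was the only difference that the labels give. E0.5 was compared with E4.5 and E18.5 with E15.5, as the study paired them, by stages it defined from progesterone levels.

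EGF family ligands are made as membrane-bound precursors, released by ADAM proteases, and bind receptor tyrosine kinases of the ERBB family, which then pair and signal through the RAS-ERK and PI3K-AKT pathways. AREG, TGFA and EGF bind EGFR, while HBEGF, BTC and EREG bind EGFR and ERBB4, and NRG1 and NRG2 bind ERBB3 and ERBB4. ERBB2 has no known ligand of its own and serves as a partner, and ERBB3 has little kinase activity and signals through its partner. In the mouse uterus HBEGF is known as a signal of the luminal epithelium at the site of the blastocyst, and Areg as a gene of the progesterone-exposed luminal epithelium around implantation.

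Values are FPKM, read counts scaled by transcript length and by library size, as deposited. The first table also holds whole-number counts, with between 58020989 and 70906881 counts per library, while the depth of the later days is unknown. Some libraries stood apart from their group. E4.5 replicate 3 had a Spearman correlation across genes of 0.711 to 0.725 with the others of its day, which reached 0.910 with each other. Its summed ovary markers were 841 FPKM, against 5.61 and 6.36 FPKM in the other E4.5 libraries, its summed oviduct markers were 79.4 FPKM against 3.63 and 4.496 FPKM, and its summed smooth muscle markers were 201 FPKM against 1192 and 779.5 FPKM. E15.5 replicate 1 had 1362 FPKM of summed decidua markers, against 101 and 110 FPKM in the others of that day. Summed markers of simple epithelium (Krt7, Krt8, Krt18, Krt19, Cdh1 and Epcam, none of them at 0) were 218 to 259 FPKM at E0.5 against 72.7 to 153.4 FPKM at E4.5, and 641 to 897 FPKM at E18.5 against 202 to 443 FPKM at E15.5. In whole tissue, fewer cells of a type and less RNA per cell cannot be told apart.

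Between E0.5 and E4.5 the largest changes lay among the ligands. Nrg1 was higher at E0.5, and Areg, Ereg and Tgfa were lower, by the study's criterion of a log2 fold change of 1 or more in size and an unadjusted p below 0.05. These were 4 of the 10 genes, beside 12.1% of all 52738 tested rows (6.13% higher and 5.98% lower). An unadjusted p below 0.05 was found for 6 of the 10, beside 17.6% of rows. The 2 days did not overlap for 7 of the 10 genes, beside 25.8% of all tested rows (12.3% higher and 13.4% lower at E0.5). After Benjamini-Hochberg adjustment over all tested rows, Nrg1 and Ereg passed 0.05 in edgeR's quasi-likelihood test, beside 1.4% of rows. The median log2 fold change of the 10 genes was -0.22, and that of all tested rows was -0.03. The criterion held for 3 of the 10 genes when E4.5 replicate 3 was left out, where Tgfa no longer met it.

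**Figure D1:**
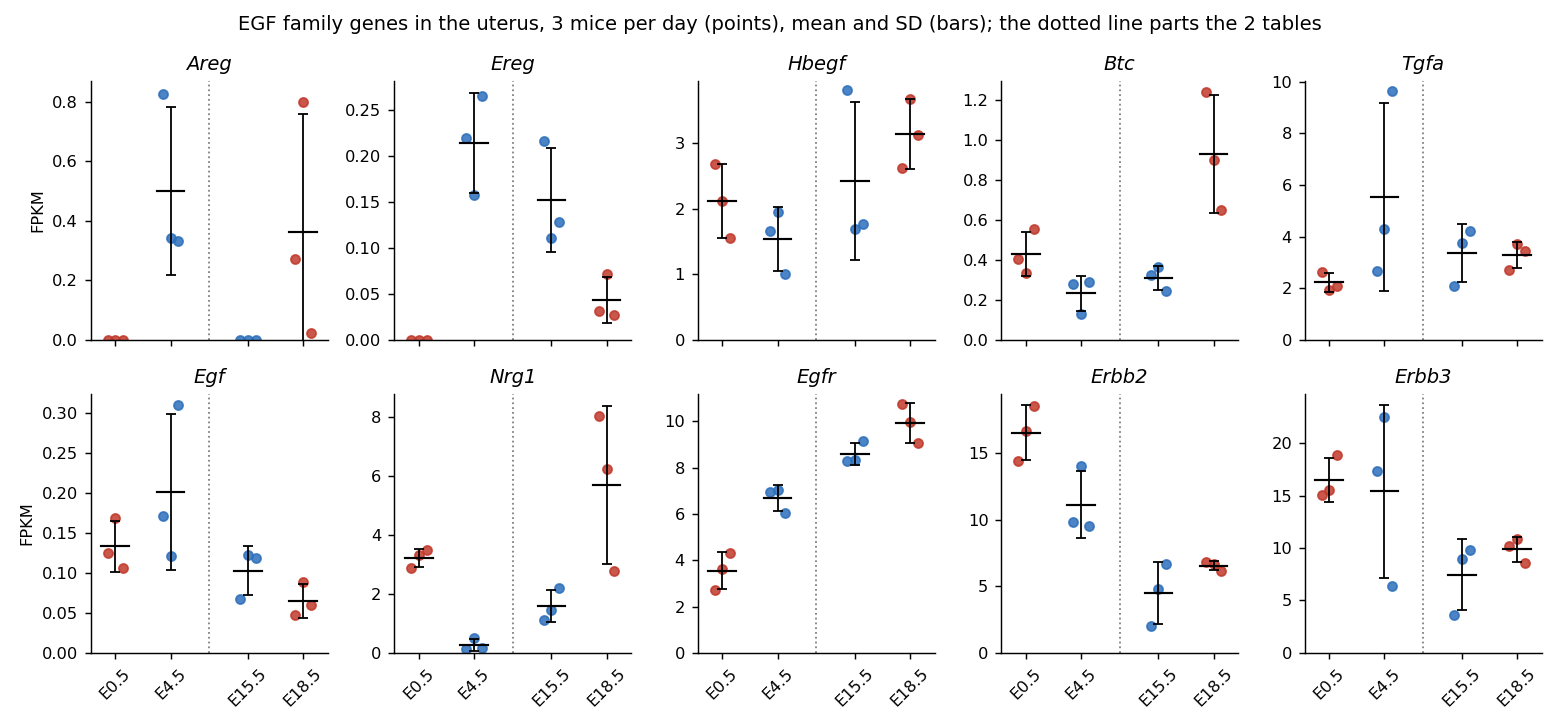
FPKM of the 10 EGF family genes (vertical axes, linear and starting at 0, each with its own scale) by day of pregnancy, with 1 point per mouse and the mean and SD of 3 mice in black, left out where all 3 libraries are at 0. The dotted line parts the implantation-stage table (left) from the labor-stage table (right), which were normalized separately. Nrg1 lies between 2.87 and 3.48 FPKM at E0.5 and between 0.121 and 0.492 FPKM at E4.5, and Areg and Ereg sit at 0 at E0.5.

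Areg and Ereg lie near each other on chromosome 5 (plus strand, build GRCm38), Ereg from 91074622 to 91093646 and Areg from 91139599 to 91148432. Areg, which encodes amphiregulin, had 0 counts in all 3 E0.5 libraries and 86, 34 and 33 counts in the E4.5 libraries, or 0.827, 0.341 and 0.332 FPKM. Ereg, which encodes epiregulin, also had 0 counts in each E0.5 library and had 78, 54 and 89 counts at E4.5, or 0.220, 0.158 and 0.265 FPKM. Both transcripts were thus seen in every mouse at E4.5 and in none at E0.5, and both stayed under 1 FPKM. Against a floor of 3 counts over the group, Areg was at least 50.2-fold lower at E0.5 than its mean at E4.5, and Ereg at least 72.3-fold lower. These bounds leave out the spread between the E4.5 mice. Leaving out 1 library at a time gave bounds from 32.5 to 59.3 for Areg and from 46.8 to 82.1 for Ereg. The adjusted p was 0.0362 for Ereg and 0.0612 for Areg (edgeR, Benjamini-Hochberg). Leaving out 1 library kept the adjusted p of Ereg under 0.05 in 1 of 6 fits, the one without E4.5 replicate 3, and it ranged from 9.34e-08 to 0.191 over all alternatives. The libraries with the highest Areg and Ereg differed, replicate 1 for Areg and replicate 3 for Ereg. Markers of uterine glands (Foxa2, Prss28, Prss29 and Spink1) moved the same way, with sums of 1.02 to 4.82 FPKM at E0.5 against 604, 968 and 10.2 FPKM in the E4.5 libraries and 3 of the 4 lower at E0.5. Of the 7 ovary markers 5 were lower at E0.5 by the criterion, with sums of 4.26 to 6.44 FPKM at E0.5 against 5.61, 6.36 and 841 FPKM in the E4.5 libraries. Ereg was highest in E4.5 replicate 3, which had the lowest gland sum of its day and the 841 FPKM of ovary markers. The part of glands and ovary in the Areg and Ereg values was not tested.

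Tgfa, the ligand TGF-alpha, on chromosome 6 (plus strand) from 86195223 to 86275719, had 2.64, 1.94 and 2.09 FPKM in the E0.5 mice, against 2.68, 4.30 and 9.64 FPKM in the E4.5 mice. The days did not overlap, but the lowest E4.5 library lay close to the highest E0.5 library, and the 9.64 FPKM came from replicate 3, the library with 841 FPKM of ovary markers. The log2 fold change was -1.28 (SE 0.44, unadjusted p of 0.0238, edgeR adjusted p of 0.207). Without E4.5 replicate 3 it was -0.64, which does not reach the criterion's fold, and Tgfa also missed it without E0.5 replicate 2 (-1.198) or 3 (-1.24), where the p rose over 0.05. The part of the ovary-rich library in this difference beyond these values was not tested.

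Hbegf had 2.69, 2.12 and 1.55 FPKM in the E0.5 mice, against 1.65, 1.95 and 1.004 FPKM in the E4.5 mice, with a log2 fold change of 0.48 (SE 0.33) and an edgeR adjusted p of 0.488. The days overlapped, and the value was 0.30 without E0.5 replicate 1 and 0.24 without E4.5 replicate 3. Btc, which encodes betacellulin and lies near Areg on chromosome 5 (minus strand, from 91357261 to 91402994), had 0.403, 0.334 and 0.552 FPKM in the E0.5 mice, against 0.277, 0.129 and 0.289 FPKM in the E4.5 mice. All its E0.5 values lay above its E4.5 values, with a log2 fold change of 0.90 (SE 0.43) and an adjusted p of 0.335, so it did not pass. Egf itself, on chromosome 3 (minus strand) from 129677565 to 129755316, was among the lowest of the ligands, with 0.126, 0.169 and 0.106 FPKM in the E0.5 mice, against 0.171, 0.122 and 0.311 FPKM in the E4.5 mice. Its days overlapped, and the log2 fold change was -0.56 (SE 0.42, edgeR adjusted p of 0.538), or -0.13 without E4.5 replicate 3.

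Nrg1, which encodes neuregulin 1, showed the strongest change among the genes with counts on both days. It had 2.87, 3.31 and 3.48 FPKM at E0.5, from 3850, 3846 and 4752 counts. At E4.5 it had 0.121, 0.492 and 0.166 FPKM, from 164, 635 and 216 counts. Every E0.5 library was thus several times above the highest E4.5 library. The log2 fold change was 3.65 (SE 0.54), a 12.6-fold difference, with an edgeR adjusted p of 0.0366. It met the criterion in each of the 6 fits that leave out 1 library, with log2 fold changes from 3.34 to 4.48. Its adjusted p stayed under 0.05 in 2 of these fits, those without E4.5 replicate 2 or 3, and ranged from 1.27e-10 to 0.152 over all alternatives. Over the same libraries 3 of 6 markers of simple epithelium were also higher at E0.5, among them Krt8 (log2 fold change 1.97) and Krt19 (2.23). Of 5 neutrophil markers 3 were tested and 2 were higher at E0.5, at sums of 0.874 to 2.66 FPKM against 0.540 to 1.47 FPKM at E4.5, which overlap, with S100a9 at 0 on both days. Leukocyte markers summed to 21.3 to 23.8 FPKM at E0.5 and 14.95 to 16.7 FPKM at E4.5, and 1 of 3 tested, Csf1r, met the criterion. The Cd68 row of that list joins Cd68 with Eif4a1 and other genes in the first table, so the sum cannot be assigned to leukocyte markers alone. The decidua list summed to 18.95 to 22.8 FPKM against 5.50 to 10.8 FPKM, mostly through Alpl, with its defining genes Prl8a2 and Prl3c1 at 0 in each E0.5 library. Endothelial markers went the other way, 16.9 to 19.5 FPKM at E0.5 and 26.5 to 47.9 FPKM at E4.5, where 1 of 4 met the criterion. The part of these cells in the Nrg1 difference was not tested.

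The Nrg1 row spans 1070 kb of chromosome 8 (minus strand), from 31814551 to 32884797, and joins Nrg1 with AC132407 and 34 Ensembl transcripts in the first table, so forms of neuregulin 1 could not be told apart. The authors' assembly added 28 rows there that carry the Nrg1 name but no Ensembl transcript. Of these, 27 lay in a stretch of 134.5 kb, from 31809832 to 31944312. The stretch covers the 3′ part of the Nrg1 row, and only its outermost row lies beyond the 3′ end. In the 26 with counts on both days the log2 fold changes ran from 2.78 to 4.604, all higher at E0.5. The remaining row had no counts at E4.5, and its level on the earlier day was at least 17.8-fold higher than a floor of 3 counts over the group. The median of the 27, with that row at its bound, was 3.44, and 26 of the 27 met the criterion (6.13% of all tested rows did in that direction), and 26 had days that did not overlap. The 1 row outside the stretch, from 32476878 to 32477263 and 532.6 kb away from the cluster, had a log2 fold change of -0.20 (unadjusted p of 0.809). The rows of the stretch come from 1 locus in the same libraries and are not independent of each other. The table gives a strand for 4 of the 27, the minus strand for 3 and the plus strand, opposite to Nrg1, for 1, and the row nearest the 3′ end lies just outside the Nrg1 row.

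**Figure D2:**
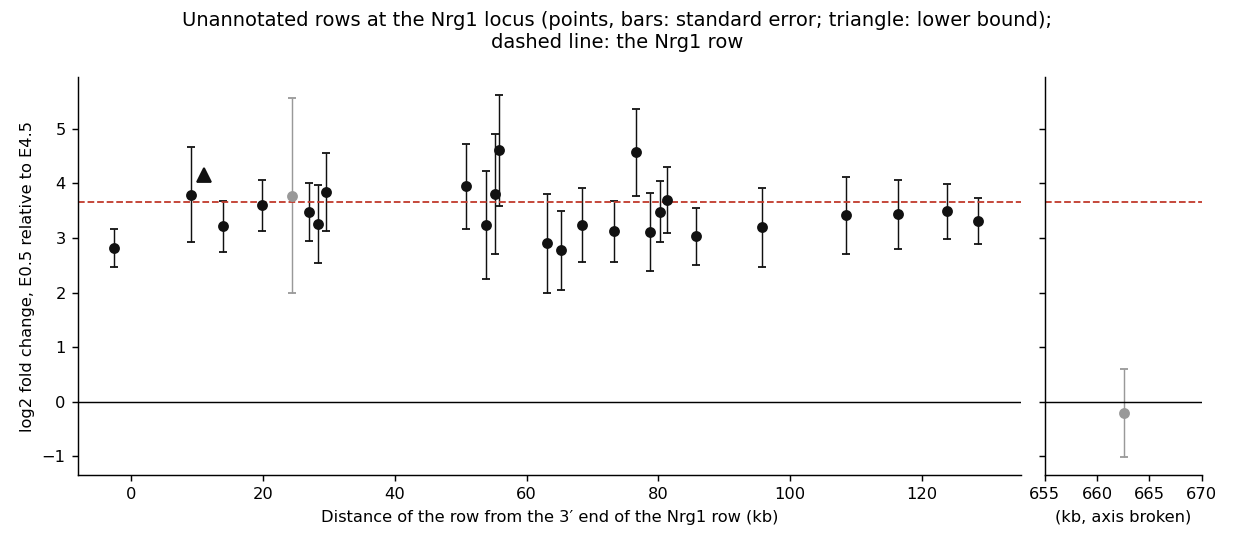
The log2 fold change of E0.5 relative to E4.5 (vertical axis, edgeR, bars show the standard error) of the 28 unannotated rows at the Nrg1 locus, by distance in kb from the 3′ end of the Nrg1 row (horizontal axis, broken), with rows that met the criterion in black and the others in grey. The dashed line is the Nrg1 row at 3.65. The triangle marks the lower bound, 4.15 on the log2 scale, of the row without counts at E4.5. The other 26 rows of the cluster lie between 2.78 and 4.604, and the distant row lies at -0.20.

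Among the receptors, no gene met the criterion between E0.5 and E4.5, but Egfr and Erbb2 had days that did not overlap. Egfr, on chromosome 11 (plus strand) from 16752203 to 16914450, had 2.72, 3.62 and 4.33 FPKM in the E0.5 mice, against 6.97, 7.06 and 6.04 FPKM in the E4.5 mice. Every E4.5 library was above every E0.5 library, with a log2 fold change of -0.89 (SE 0.22), an unadjusted p of 0.00499 and an edgeR adjusted p of 0.104. The 4 unannotated rows at Egfr had log2 fold changes between -0.80 and -0.74, and none of them met the criterion. Without E0.5 replicate 3 Egfr met the criterion (-1.05, unadjusted p of 0.00425).

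Erbb2 had the opposite order, without meeting the criterion. Its row, on the same chromosome from 98412470 to 98437716 (plus strand), had 14.4, 16.7 and 18.6 FPKM in the E0.5 mice, against 9.85, 14.1 and 9.54 FPKM in the E4.5 mice, a log2 fold change of 0.60 (SE 0.21, edgeR adjusted p of 0.210). Erbb3, on chromosome 10 (minus strand) from 128567523 to 128589652, had 15.1, 15.52 and 18.9 FPKM in the E0.5 mice, against 17.4, 22.5 and 6.35 FPKM in the E4.5 mice. Its E4.5 libraries spread on both sides of the E0.5 libraries, and the lowest was replicate 3. The log2 fold change was 0.12 (SE 0.44, adjusted p of 0.919) and turned to -0.26 without that library. The summed markers of simple epithelium were also lowest in that library, at 72.7 FPKM against 101 and 153.4 FPKM, and their part in these values was not tested.

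At E18.5 against E15.5, Nrg1 and Btc were higher and Areg was seen only on the later day. These 3 genes met the criterion, of 8 that could be tested, beside 5.6% of all 29597 tested rows (2.89% higher and 2.71% lower). Ereg and Egf had means under 0.1 FPKM and were not tested. The days did not overlap for 3 of the 8 tested genes, beside 19.7% of all tested rows (10.9% higher and 8.79% lower at E18.5). None of the 8 tested genes passed a limma adjusted p of 0.05, where 13 of all rows, or 0.0439%, did, and 3 of the 8 had an unadjusted p below 0.05, beside 12% of rows. The median log2 fold change of the 8 genes was 0.60, beside 0.02 over all tested rows. The criterion held for 2 genes when E15.5 replicate 1 was left out.

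**Figure D3:**
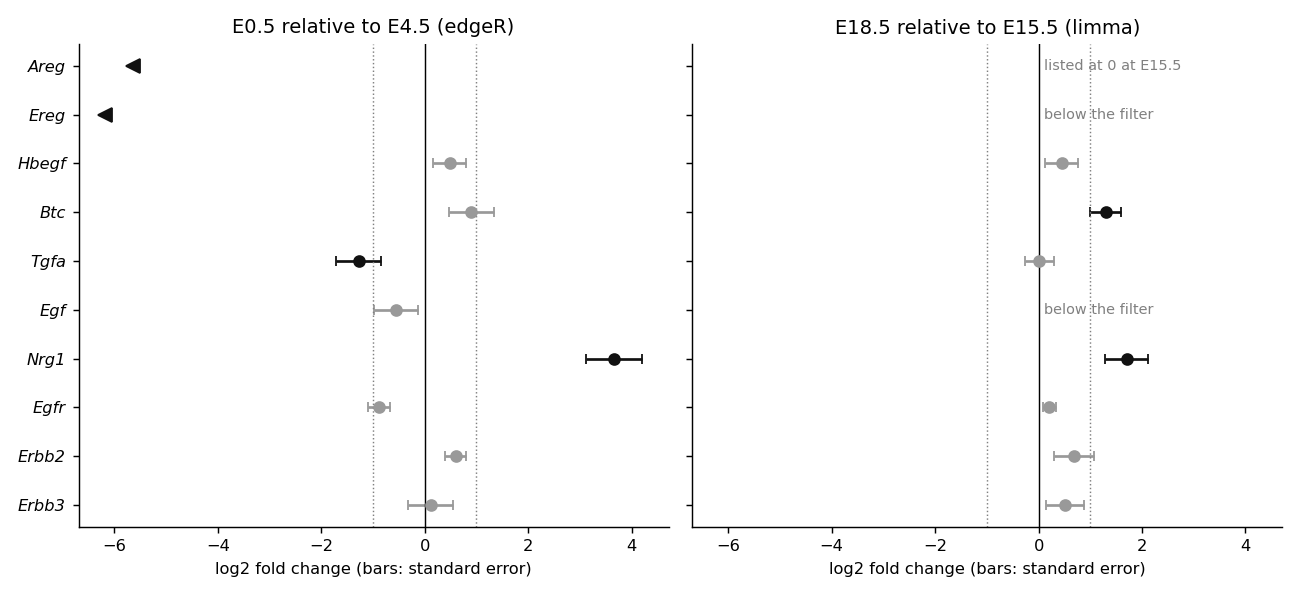
Log2 fold changes (horizontal axis) of the 10 genes at E0.5 relative to E4.5 (left, edgeR) and at E18.5 relative to E15.5 (right, limma), with bars for the standard error, black where the gene met the criterion and grey where it did not, and dotted lines at -1 and 1. The arrowheads of Areg and Ereg on the left mark the least change that the bounds of 50.2-fold and 72.3-fold allow, and the genes without a fold change on the right are marked in words. Nrg1 lies at 3.65 on the left and 1.70 on the right.

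Nrg1 had 8.03, 6.22 and 2.78 FPKM in the E18.5 mice, against 1.13, 1.44 and 2.19 FPKM in the E15.5 mice. The E18.5 libraries spread widely, and their lowest lay just above the highest of E15.5. On the log2(FPKM + 0.1) scale the fold change was 1.70 (SE 0.42), with an unadjusted p of 0.00474 and a limma adjusted p of 0.200. It met the criterion in each of the 6 fits that leave out 1 library, with values from 1.39 to 2.14. Of the 4 unannotated rows at Nrg1 in this table, 3 met the criterion, beside 2.89% of all tested rows in that direction, and the median over the 4 was 1.73.

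Btc had 1.24, 0.899 and 0.650 FPKM in the E18.5 mice, against 0.323, 0.362 and 0.244 FPKM in the E15.5 mice. The lowest E18.5 library lay well above the highest E15.5 library. The log2 fold change was 1.30 (SE 0.30), with an unadjusted p of 0.00337 and a limma adjusted p of 0.183, and the criterion was met in each of the 6 fits that leave out 1 library. With a pseudocount of 1 in place of 0.1 the fold change was 0.55, short of the criterion.

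Areg had a listed value of 0 in each E15.5 library and had 0.270, 0.798 and 0.0224 FPKM at E18.5. The E18.5 values differed widely from mouse to mouse, and no fold is given against a group listed at 0 without counts. The unadjusted p was 0.0408 and the adjusted p was 0.393 in limma's test. Areg met the criterion in 1 of the 6 fits that leave out 1 library, the one without E18.5 replicate 3. The call also rests on the pseudocount, since the fitted difference was 0.41 with a pseudocount of 1, where the criterion was missed (unadjusted p of 0.0714), and 4.28 with 0.01. Ereg showed the opposite order, with 0.0314, 0.0721 and 0.0266 FPKM in the E18.5 mice, against 0.217, 0.111 and 0.128 FPKM in the E15.5 mice. Its days did not overlap at these low levels, and it was not tested. Egf had 0.0470, 0.0885 and 0.0605 FPKM in the E18.5 mice, against 0.0675, 0.123 and 0.119 FPKM in the E15.5 mice, which overlapped.

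Hbegf and Tgfa, the most abundant EGFR ligands on both days, did not pass. Hbegf had 2.62, 3.68 and 3.13 FPKM in the E18.5 mice, against 3.81, 1.70 and 1.76 FPKM in the E15.5 mice, where the high value belonged to replicate 1, the library with 1362 FPKM of decidua markers. Its log2 fold change was 0.45 (SE 0.32, limma adjusted p of 0.616). It was 0.81 without that library (unadjusted p of 0.00482), and 0.25 or 0.28 without E15.5 replicate 2 or 3. Tgfa had 2.72, 3.71 and 3.44 FPKM in the E18.5 mice, against 2.10, 3.74 and 4.23 FPKM in the E15.5 mice, a log2 fold change of 0.02 (SE 0.28, adjusted p of 0.987), and its direction changed with the scaling.

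None of the 3 receptors met the criterion between E15.5 and E18.5, and their days overlapped. Egfr had 10.7, 9.98 and 9.05 FPKM in the E18.5 mice, against 8.30, 8.32 and 9.14 FPKM in the E15.5 mice (log2 fold change 0.21, SE 0.12, limma adjusted p of 0.542). Erbb2 had 6.84, 6.69 and 6.18 FPKM in the E18.5 mice, against 2.06, 4.84 and 6.65 FPKM in the E15.5 mice (0.68, SE 0.39, adjusted p of 0.529). Erbb3 had 10.2, 10.8 and 8.58 FPKM in the E18.5 mice, against 3.62, 8.93 and 9.86 FPKM in the E15.5 mice (0.52, SE 0.37, adjusted p of 0.610). For Erbb2 and Erbb3 the lowest library by far was E15.5 replicate 1, which also had the lowest sum of simple epithelium markers, at 202 FPKM against 313 and 443 FPKM. Without that library the log2 fold change was 0.21 for Erbb2 and 0.07 for Erbb3, and without E15.5 replicate 3 it was 1.03 for Erbb2, which then met the criterion, and 0.78 for Erbb3. Summed yolk sac markers rose over the E15.5 libraries in the same order, at 0.6675, 98.15 and 757 FPKM. At E18.5 they were 172.2, 515.5 and 91.15 FPKM. The part of epithelium and yolk sac in these Erbb2 and Erbb3 values was not tested. Of the 6 epithelial markers 4 were higher at E18.5 by the criterion. Placenta markers were also higher, 38.2 to 57.6 FPKM in sum at E18.5 and 3.17 to 12.4 FPKM at E15.5, and 3 of 5 tested met the criterion. Endothelial markers were lower, 66.1 to 94.5 FPKM in sum at E18.5 and 136.0 to 166.8 FPKM at E15.5, and 1 of 4 met the criterion. Of 4 tested decidua markers 2 were higher at E18.5, Wnt4 (1.24) and Cryab (1.13), while the summed list overlapped, at 90.9 to 107.9 FPKM against 101 to 1362 FPKM. The part of these cells in the Nrg1, Btc and Areg values was not tested either.

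The effect of the day was then compared between the stages, as the log2 fold change of E0.5 relative to E4.5 less that of E18.5 relative to E15.5, with limma on log2(FPKM + 0.1) over all 12 libraries. A difference of 1 or more in size and an unadjusted p below 0.05 were found for 3 of the 10 genes, beside 12.4% of 26597 rows, and 2 of them passed an adjusted p of 0.05, beside 2.52% of rows. Areg, lower at E0.5 and seen at E18.5, differed by -4.27 (SE 0.85, adjusted p of 0.0267), a size that rests on the pseudocount because each stage had a day at 0. Egfr differed by -1.12 (SE 0.24, adjusted p of 0.0346), from -0.91 at E0.5 and 0.21 at E18.5. Nrg1 was higher on the first-named day in both stages, and its difference of 1.64 (SE 0.62) had an adjusted p of 0.191. The criterion was met in all 12 fits that leave out 1 library for Areg, in 11 for Egfr (-0.95 without E0.5 replicate 1) and in 9 for Nrg1 (1.36, 1.40 and 1.202 without E4.5 replicate 1, E15.5 replicate 3 and E18.5 replicate 3). None of these genes met it with a pseudocount of 1, where Egfr was at -0.96, and Egfr also missed it when scaled to the 75th percentile (-0.99, adjusted p of 0.0591). The adjusted p stayed under 0.05 in 5 of the 12 fits for Areg (up to 0.0678) and in 2 of the 12 for Egfr (up to 0.0921).

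Because FPKM is scaled by length, levels of the ligands can be set beside each other within a library, as far as the assembled lengths are right. The Nrg1 row holds 34 Ensembl transcripts in the first table and 17 in the second. Its shares at the implantation and labor stages thus rest on different gene models. Nrg1 made up 39.9% ± 6.2 (SD, n = 3) of the summed FPKM of the 7 ligands at E0.5 and 3.33% ± 2.83 at E4.5. It made up 19.7% ± 5.28 at E15.5 and 40.5% ± 13.1 at E18.5, so it was the ligand with the highest mean level at E0.5 and at E18.5. Tgfa had the highest mean level at E4.5 (60.9% ± 17.9) and at E15.5 (42.1% ± 12.7). Hbegf held between 20.7% and 31.0% on average on each day. At E0.5 the order of means was Nrg1, Tgfa, Hbegf, Btc and Egf, where the ranges of Tgfa and Hbegf overlapped and the other neighbours did not. At E18.5 the ranges of Nrg1, Tgfa and Hbegf overlapped, as they did at E15.5, while Btc lay below them on both days.

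**Figure D4:**
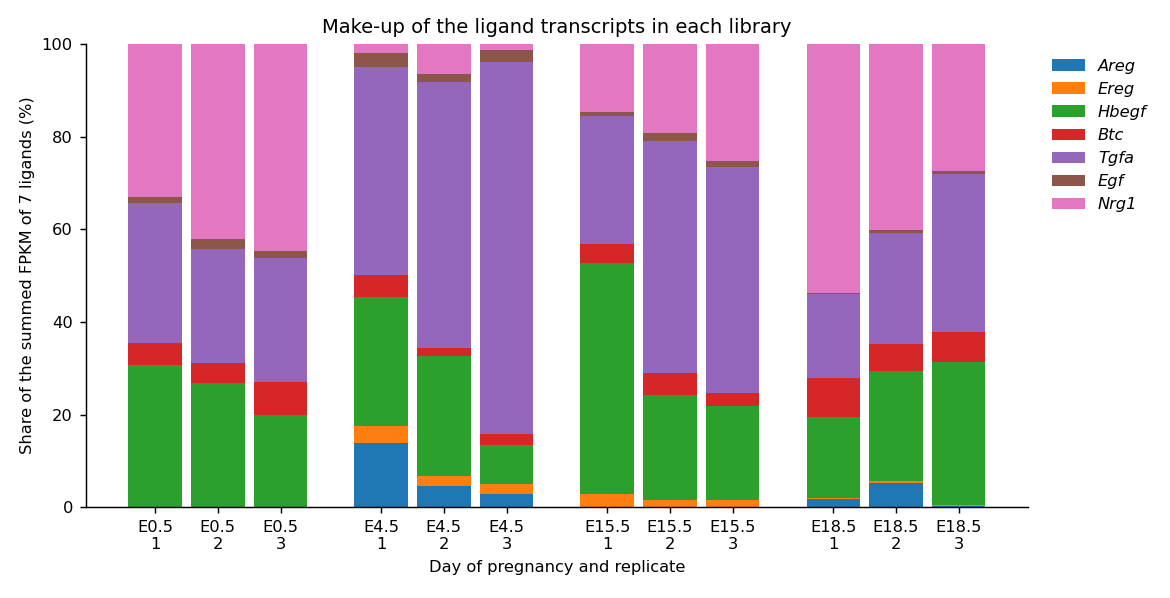
Share of each ligand in the summed FPKM of the 7 ligands (vertical axis, percent, starting at 0) in each of the 12 libraries (horizontal axis, day and replicate). Nrg1 forms 32.9% to 44.8% of the stack in the E0.5 libraries and 1.39% to 6.57% in the E4.5 libraries, where Tgfa forms 45.03% to 80.3%.

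The sum of the 7 ligands was 8.12 ± 0.52 FPKM (SD, n = 3) in the E0.5 mice. It was 8.48 ± 3.15 FPKM in the E4.5 mice. The E0.5 libraries had 8.73, 7.87 and 7.775 FPKM. E4.5 replicates 1 and 2 had 5.95 and 7.49 FPKM, below every E0.5 library. E4.5 replicate 3, the library rich in ovary markers, lay above every E0.5 library. The overlap of these totals thus rests on that library, while the make-up differed between the days. The sum was 13.5 ± 2.97 FPKM at E18.5, from 15.0, 15.47 and 10.1 FPKM. At E15.5 it was 7.93 ± 0.65 FPKM, from 7.65, 7.47 and 8.67 FPKM. The receptor transcripts exceeded those of the ligands on every day, with sums of 36.6 ± 4.84 FPKM at E0.5, 33.3 ± 10.9 FPKM at E4.5, 20.6 ± 5.99 FPKM at E15.5 and 26.4 ± 2.22 FPKM at E18.5. Egfr formed 9.63% ± 1.04 of the receptor sum at E0.5 and 21.4% ± 5.76 at E4.5. Its share was the lowest of the 3 receptors in every library of both days, and at E4.5 it reached 27.6% in replicate 3, where Erbb3 held 28.9%. At E15.5 and E18.5 it formed 44.2% ± 13.2 and 37.7% ± 1.23, in tables normalized apart from the first.

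Of the other genes of the family, Epgn and Nrg3 were too low to test in either stage, and Nrg4 had log2 fold changes of 0.15 and -0.23 that did not pass. Nrg2, a relative of Nrg1, had 1.495, 1.73 and 3.08 FPKM in the E0.5 mice, against 0.518, 0.615 and 0.540 FPKM in the E4.5 mice. It was higher at E0.5 in every library, with a log2 fold change of 1.93 (SE 0.33, edgeR adjusted p of 0.0505). At E18.5 against E15.5 Nrg2 had a log2 fold change of -0.27 (SE 0.35), and the difference between the stages was 1.95 (SE 0.47, adjusted p of 0.0534). Of 47 unannotated rows at Nrg2 15 met the criterion as higher at E0.5, beside 6.13% of all rows, and 46 had a fold change above 0.

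Erbb4, the receptor that the neuregulins share with HBEGF, BTC and EREG, was among the lowest genes of the family at the implantation stage. It had 0.0432, 0.0389 and 0.0457 FPKM in the E0.5 mice, against 0.0352, 0.511 and 0.183 FPKM in the E4.5 mice, from 37, 516 and 184 counts on the latter day. The days overlapped, although the log2 fold change of -2.45 (SE 0.86, adjusted p of 0.213) met the criterion. Of 15 unannotated rows at Erbb4 8 met it as lower at E0.5, beside 5.98% of all rows. In the labor-stage table Erbb4 had 7.03, 8.28 and 4.89 FPKM in the E18.5 mice, against 2.29, 4.30 and 5.56 FPKM in the E15.5 mice, with a log2 fold change of 0.78 (SE 0.34, limma adjusted p of 0.432). The difference between the stages was -1.78 (SE 0.69, unadjusted p of 0.0251, adjusted p of 0.205), past the criterion and opposite in sign to that of Nrg2.

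Further genes were taken from 7 lists of 81 genes, which hold the other family members and, in a list of its own, 8 genes known around implantation that are not part of the pathway. At E0.5 against E4.5, 16 of 77 tested genes met the criterion (20.8%, beside 12.1% of all rows), 9 higher and 7 lower. Without E4.5 replicate 3 the count was 17. At E18.5 against E15.5, 5 of 77 did (6.49%, beside 5.6%), 4 higher and 1 lower. Without the 8 implantation genes the counts were 11 of 69 (15.9%) at E0.5 and 3 of 70 (4.29%) at E18.5, the latter below the share of all rows. The median log2 fold changes over all 7 lists were -0.02 and 0.15.

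None of the 9 tested genes of ligand shedding, which include the sheddase Adam17 and its partners Rhbdf1 and Rhbdf2, met the criterion at E0.5 against E4.5, beside 12.1% of all rows, and their median was 0.08. At E18.5 1 of the 9 met it, beside 5.6% of rows. Adam8, a protease of myeloid cells, fell from 14.8, 11.95 and 7.31 FPKM at E15.5 to 2.42, 2.52 and 7.27 FPKM, with a log2 fold change of -1.59 (SE 0.46, limma adjusted p of 0.254). The values of the third replicates nearly met. Neutrophil markers summed to 27.7 FPKM in E15.5 replicate 1 and to at most 4.23 FPKM in the other libraries of that table, and their part in the Adam8 values was not tested. None of the 17 adaptors and RAS-ERK kinases met the criterion in either stage, beside the same 12.1% and 5.6%, with fold changes between -0.70 and 0.65 on the log2 scale. In the PI3K-AKT arm 1 of 11 genes (9.09%) did at E0.5 and 0 of 11 at E18.5, the 1 being the row that joins Pik3r3 with 1700042G07Rik and Gm49337, at 1.06 (SE 0.27, edgeR adjusted p of 0.109), which cannot be assigned to Pik3r3 alone.

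Among 16 attenuators of the receptors, 2 were higher and 1 was lower at E0.5 (18.8% called, beside 12.1% of all rows), and none met the criterion at E18.5, beside 5.6% of rows. Lrig1, which promotes the removal of ERBB receptors from the cell surface, had 10.1, 10.6 and 14.5 FPKM in the E0.5 mice, against 3.20, 3.19 and 5.36 FPKM in the E4.5 mice (log2 fold change 1.61, SE 0.27, edgeR adjusted p of 0.0467). Cblc, a ubiquitin ligase of the Cbl family found in epithelia, had 9.23, 8.91 and 11.5 FPKM in the E0.5 mice, against 3.30, 4.18 and 0.885 FPKM in the E4.5 mice (1.84, SE 0.53, adjusted p of 0.146). Spry4, an inhibitor of the RAS-ERK pathway, went the other way, with 1.75, 1.64 and 1.12 FPKM in the E0.5 mice, against 4.404, 2.83 and 2.76 FPKM in the E4.5 mice (-1.13, SE 0.30, adjusted p of 0.118). All 3 had days that did not overlap.

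Of the genes that respond to ERK signalling, 2 of 13 tested were higher at E0.5 and 3 were lower, beside 6.13% and 5.98% of all rows. Fos, an immediate early transcription factor, had 9.09, 7.53 and 6.05 FPKM in the E0.5 mice, against 2.51, 1.66 and 1.91 FPKM in the E4.5 mice (log2 fold change 1.91, SE 0.27, edgeR adjusted p of 0.0320). Dusp4, a phosphatase of ERK, was also higher at E0.5 (2.22, SE 0.45, adjusted p of 0.0700). Myc, a driver of growth, had 2.89, 2.63 and 3.37 FPKM in the E0.5 mice, against 14.1, 14.2 and 3.46 FPKM in the E4.5 mice, where replicate 3 lay at the level of E0.5 (-1.82, SE 0.52, adjusted p of 0.144). Etv1 (-1.14) and Ccnd1 (-1.19) were lower at E0.5 too, and the days overlapped for Ccnd1. At E18.5 against E15.5, 2 of 14 genes were higher, beside 2.89% of rows. Fos had 18.4, 25.9 and 17.7 FPKM against 5.04, 6.15 and 6.56 FPKM, well apart (1.77, SE 0.19, unadjusted p of 3.18e-05, limma adjusted p of 0.0588), and Egr1 had a log2 fold change of 1.78 (SE 0.41, adjusted p of 0.183). Fos thus met the criterion on the side of E0.5 and of E18.5, as did Nrg1, and also Muc1 and Ptgs2 of the implantation genes.

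The last list holds 8 genes known around implantation, of which 3 were higher and 2 lower at E0.5, beside 6.13% and 5.98% of all rows. Muc1, a mucin of the luminal surface, had 45.8, 68.0 and 79.8 FPKM in the E0.5 mice, against 3.89, 4.45 and 1.24 FPKM in the E4.5 mice (log2 fold change 4.35, SE 0.55, edgeR adjusted p of 0.0257). Ptgs2, an enzyme of prostaglandin synthesis, was higher at E0.5 as well (3.81, SE 0.75, adjusted p of 0.0660), and Msx1 met the criterion at 2.53. Bmp2, which is needed for decidualization, had 0.484, 0.521 and 0.580 FPKM in the E0.5 mice, against 8.25, 4.92 and 3.97 FPKM in the E4.5 mice (-3.42, SE 0.35, adjusted p of 0.0176). Ihh, a progesterone-induced signal of the epithelium, was lower at E0.5 too (-2.55, SE 0.40, adjusted p of 0.0425). At E18.5, 2 of 7 tested genes met the criterion, Muc1 (1.91, SE 0.55, adjusted p of 0.254) and Ptgs2 (1.40, SE 0.46, adjusted p of 0.304), both higher, beside 2.89% of rows in that direction. The progesterone receptor gene Pgr had log2 fold changes of -0.44 and -0.13 and did not pass in either stage.

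**Figure D5:**
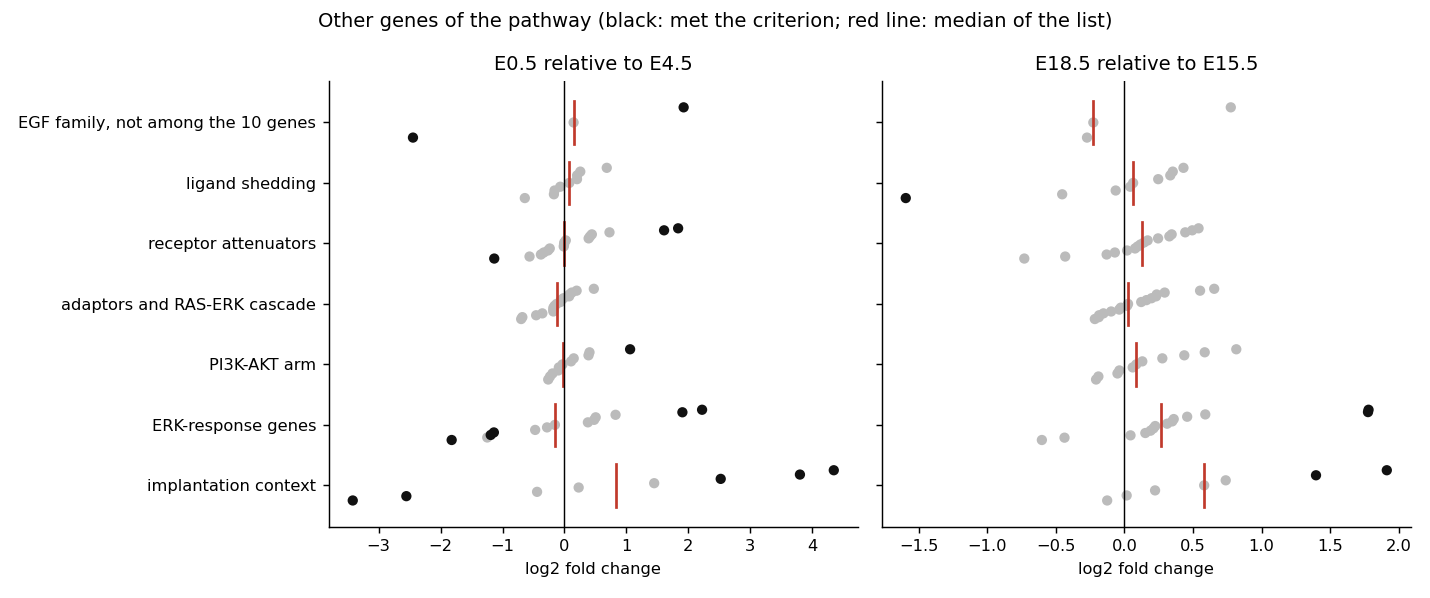
Log2 fold changes (horizontal axes, each panel with its own scale) of the tested genes of the 7 lists, at E0.5 relative to E4.5 (left) and at E18.5 relative to E15.5 (right), with 1 point per gene, black where the criterion was met, and the median of each list as a red line. The 17 genes of the RAS-ERK cascade hold no black point in either panel, and the list of implantation genes spans -3.42 to 4.35 on the left.

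The genes whose levels followed each family member most closely were sought over all 12 libraries, with log2(FPKM + 0.1) centred within each table, among 10851 protein-coding rows. These correlations are descriptions over libraries that share day, depth and tissue make-up. Nrg1 was followed most closely by Aktip (Pearson's r of 0.981), Macc1 (0.976) and Tc2n (0.973). For Erbb2 these were Llgl2 (0.978), Psmd3 (0.976) and Sft2d2 (0.974), and for Egfr they were Nol9 (0.965), Brd8 (0.961) and Rbm10 (0.950). Btc was followed by Cryab of the decidua list (0.929), Pik3cb (0.899) and Alpk1 (0.891), and Tgfa by Gpam (0.947), Usp5 (0.943) and Gpc3 (0.938). The leading gene was Brix1 for Areg (0.906), 1700066M21Rik for Ereg (0.978), Tes for Hbegf (0.841), which was the lowest of the leading values, and Rab3a for Egf (0.924). For Erbb3 the first rows were joined rows of several genes, and the first single gene was Pls1 (0.950).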

How the data were processed

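The uterine RNA was sequenced for the authors by a service provider. Per their methods, Cutadapt removed poor reads, Bowtie2 and Tophat2 placed the rest on the genome, StringTie built the transcripts and Ballgown gave their levels. The submitters' processing notes name Bowtie 0.12.2, HISAT2 2.0 and StringTie 1.3.0 and the builds mm8 and mm10. Of 18921 protein-coding rows, 18916 overlap the RefSeq gene of their name in GRCm38, and positions are given in that build as the first table lists them. The labels describe poly(A) selection where the paper describes removal of ribosomal RNA. FPKM values were deposited by the authors as 1 table per stage, normalized separately, so no level of one table was tested against the other. Counts for E0.5 and E4.5 were deposited too, as whole numbers, and how reads were assigned to genes or strands is not given in the sources used here. The first table holds 0.0001 FPKM in place of 0, which was set back to 0. No deposited values for other experiments were analysed here.

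The implantation stage was tested on counts with edgeR 4.0.16 (TMM, quasi-likelihood) and the labor stage on log2(FPKM + 0.1) by the trend method of limma 3.58.1, both under R 4.3.3, on named rows that averaged 0.1 FPKM or more across that stage's 6 libraries. Rows without a gene name, 7007 and 1332, held 1.02% to 1.86% of the counts of the first table. The standard error of an edgeR fold change was taken from the fold change and its F statistic. A fold change from limma understates the change of low genes. P-values were adjusted over all tested rows (Benjamini-Hochberg). With 1 mouse per library, p-values measure the spread between mice, and bounds cover only the counting error of the group at 0. Each test was first run on simulated data. The 10 genes, the pathway and marker lists and the rule for named genes (all family members, and up to 4 genes per list that met the criterion with no overlap) were chosen with earlier results of these data known. Genes named beyond that rule (Msx1, Ccnd1, Pgr, and marker genes) were chosen after their values were seen. Nrdc has no row, and of 2 Junb rows in the second table the higher was used. Same-numbered libraries deviated together with correlations of -0.10, 0.03 and -0.09 at the implantation stage and 0.01, 0.00 and -0.03 at the labor stage, so replicate numbers were not used as pairs. Alternatives were other scalings, DESeq2 1.42.0, limma on FPKM, other filters and pseudocounts, a block on the replicate number, and leaving out libraries 1 at a time. Tables were made with Python 3.11.15, pandas 2.3.3 and SciPy 1.17.1, and figures with matplotlib 3.10.9.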

Additional observations from a re-analysis of the deposited data

Results flagged for a closer look

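The effect of the day differed between the stages for 3 of the 10 genes, beside 12.4% of 26597 rows (limma over all 12 libraries, on log2(FPKM + 0.1)), and for 0 with a pseudocount of 1. Areg was lower at E0.5 than at E4.5 in every library and was seen at E18.5 but not at E15.5, a difference of -4.27 (SE 0.85, adjusted p 0.0267). With pseudocounts of 0.01 and 1 this difference was -9.82 and -0.98. Egfr was lower at E0.5 and showed little difference at E18.5, a difference of -1.12 (SE 0.24, adjusted p 0.0346). Nrg1 was higher on the first-named day in both stages and more so at E0.5, a difference of 1.64 (SE 0.62) that did not pass the adjustment (0.191).

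A signal also appeared in rows outside the main measurement. At the Nrg1 locus 26 of 28 rows without an annotated transcript met the criterion at E0.5 against E4.5, all of them higher at E0.5, beside 6.13% of all tested rows. At E18.5 against E15.5, 3 of 4 such rows met it, all higher at E18.5, beside 2.89% of rows. Nrg1 was not alone in this, since 15 of 47 such rows at Nrg2 were higher and 8 of 15 at Erbb4 were lower at E0.5 by the criterion. The shares of all tested rows were 6.13% higher and 5.98% lower. Rows of 1 locus come from the same libraries and are not independent of each other or of the gene's own row.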

How the results depend on the processing

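Over the 10 genes, 357 recomputed values kept their direction and side of the threshold, 19 lost the call, 5 gained it and 23 changed sign. None of the sign changes belonged to a gene past the criterion in the same comparison, and their causes were not tested. The count of family genes at E0.5 against E4.5 went from 4 to 2 with a filter at 1 FPKM (Nrg1 and Tgfa) and to 2 with an adjusted p (Ereg and Nrg1), and ran from 3 to 4 when 1 library was left out. At E18.5 against E15.5 it went from 3 to 1 with a pseudocount of 1, to 1 with a filter at 1 FPKM and to 0 with an adjusted p, and ran from 2 to 3 when 1 library was left out. The count of genes that differ between the stages went from 3 to 0 with a pseudocount of 1 and ran from 2 to 4 when 1 library was left out. The filter and the adjustment lower counts by their construction.

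Tgfa at E18.5 was -0.09 (-0.088) under scaling to the 75th percentile, -0.03 (-0.032) under quantile normalization and between -0.28 and 0.21 without 1 library. Erbb3 at E0.5 ran from -0.26 to 0.46 without 1 library. In the difference between the stages, Hbegf was -0.02 with a pseudocount of 1 and ran from -0.36 to 0.20 without 1 library, and Egf was 0.10 (0.099) with a pseudocount of 0.01, 0.02 (0.023) under the percentile scaling and -0.23 to 0.21 without 1 library. Erbb2 was 0.03 (0.034) under the percentile scaling and -0.45 to 0.38 without 1 library, and Erbb3 ran from -0.78 to 0.21.

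With the replicate block, which the numbers do not warrant as a pairing, 5504 rows met the criterion at E0.5 against E4.5 (6387 without it) and 0 passed the adjusted p (739 without it). At the labor stage 1656 met it (1657 without). Tgfa at E0.5 was -1.10 under the block and lost its call. DESeq2 gave 5297 adjusted calls at the implantation stage, and leaving out 1 library gave between 0 and 3526, the latter without E4.5 replicate 3. Low FPKM limits Areg, Ereg and Egf, and the unknown depth limits the labor stage.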
